A study of Homo sapiens with 9 samples.

Results

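VCAN, FBN2, LUM and PRG4 encode structural proteins of the extracellular matrix, and their RNA was followed in A549 cells that could or could not attach to their plate. They are 4 of the 14884 genes named here, and were found as the 5 of 53617 probe sets whose platform symbol is 1 of these names. They were chosen for their intensities across the 3 groups of arrays, so their own values are given as a description, with no test. The A549 line was established from a human lung adenocarcinoma, a tumour of epithelial origin. Cells were kept for 5 days on an ordinary attachment plate, on a low-attachment plate, or on a low-attachment plate with 0.015% (w/v) of an additive labelled FP001. The groups without FP001 received Milli-Q water in its place, and all groups shared the line and serum-containing DMEM. Each condition had 3 arrays. Attachment replicate 1 had no positive rank correlation with any of the others (−0.00191 at most) and was left out. The values thus rest on 2 attachment arrays, 3 low-attachment arrays and 3 low-attachment arrays with FP001.

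Versican (VCAN) is a large chondroitin sulfate proteoglycan that binds hyaluronan and makes a hydrated, loosely adhesive coat around cells. Fibrillin-2 (FBN2) is a glycoprotein that polymerises into microfibrils, the thin filaments on which elastic fibres form and which hold TGF-β and BMP growth factors in the matrix. Lumican (LUM) is a small leucine-rich proteoglycan that binds collagen fibrils and sets their spacing, and it is best known from fibroblasts and the cornea. Lubricin (PRG4) is a mucin-like glycoprotein that lubricates joints and the surfaces of mesothelium.

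Array medians of these 8 were 23.3 to 24.1, with pairwise rank correlations of 0.961 to 0.985. Of 8 epithelial markers with a named probe set, 7 were at or above the array median on at least 3 arrays, and their summed intensity was 4275.0 to 4442.9, 4499.9 to 4845.1 and 5234.6 to 5778.2 in the attachment, low-attachment and FP001 groups. The keratin gene KRT18 was the brightest (mean 3589.7 on attachment plates), and the adhesion protein gene EPCAM (233.5) and KRT19 (184.4) were also well above the array median. These epithelial markers did not all rise. In the same order of groups KRT18 read 3589.7, 3724.0 and 4422.1, and KRT19 184.4, 376.5 and 539.5. CLDN4 (23.9, 36.5 and 38.8) and CLDN7 (43.6, 47.5 and 47.9) also read higher. EPCAM read 233.5, 220.0 and 162.0, KRT7 122.0, 84.1 and 98.7, and KRT8 146.7, 144.8 and 140.3. Of the 12 fibroblast markers, 4 were named, and 1 of these was LUM itself. Another, the collagen-binding proteoglycan DCN, read 3.32 to 3.91 and stayed under the array median on all 8 arrays, and the surface protein THY1 had a mean of 75.5 on attachment plates, 55.4 on low-attachment plates and 53.2 with FP001. All 6 mesothelial markers passed that limit, PRG4 among them, with UPK3B the brightest in each group (164.1, 103.3 and 91.5 in the same order). On attachment plates PRG4 (85.4) stood above WT1 (62.8) and MSLN (40.4). The summed intensity of the 6 mesothelial markers, PRG4 included, was 381.9 to 446.6, 294.0 to 316.7 and 284.6 to 338.0 in the 3 groups. The mesothelial markers did not move together. In the same order MSLN read higher (means 40.4, 51.2 and 60.2), as did LRRN4 (19.3, 24.2 and 25.2). WT1 read 62.8, 48.7 and 61.8, and CALB2 read 38.4, 45.1 and 38.9. The 4 named leukocyte markers summed to 452.2 to 534.4, 590.7 to 830.4 and 665.2 to 993.2, with CD68 and CD14 the brightest, and the 4 endothelial ones, led by CLDN5 and VWF, to 87.1 to 99.1, 96.4 to 115.6 and 107.8 to 135.8. The part of these marker levels in the results was not tested.

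The 250 bases before the RefSeq start sites of the genes are shown as a description of what lies there. VCAN, FBN2 and PRG4 read lower on the low-attachment plates, but they were chosen for their values across the groups. Whether they share a control was not tested. RefSeq promoter entries (GRCh38.p14) matched 3 of the 4 genes, and LUM had none. VCAN lies at chr5:83471494-83471743 on the plus strand, FBN2 at chr5:128538246-128538495 on the minus strand and PRG4 at chr1:186296023-186296272 on the plus strand. PRG4 had 2 entries, of which the first is shown. Each is written 5′ to 3′, with capitals for a match to GGGCGG, the GC box bound by SP1-type factors, on either strand.
VCAN: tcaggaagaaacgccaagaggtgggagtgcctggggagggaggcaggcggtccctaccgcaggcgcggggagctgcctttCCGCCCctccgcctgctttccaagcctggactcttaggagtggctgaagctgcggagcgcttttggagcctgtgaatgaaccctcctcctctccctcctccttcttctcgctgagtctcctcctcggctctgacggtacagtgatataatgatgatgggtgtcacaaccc
FBN2: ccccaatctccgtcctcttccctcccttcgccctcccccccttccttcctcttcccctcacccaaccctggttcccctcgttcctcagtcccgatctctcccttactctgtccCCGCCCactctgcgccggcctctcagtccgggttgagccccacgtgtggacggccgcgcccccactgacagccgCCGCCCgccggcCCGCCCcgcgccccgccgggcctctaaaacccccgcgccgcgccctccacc
PRG4: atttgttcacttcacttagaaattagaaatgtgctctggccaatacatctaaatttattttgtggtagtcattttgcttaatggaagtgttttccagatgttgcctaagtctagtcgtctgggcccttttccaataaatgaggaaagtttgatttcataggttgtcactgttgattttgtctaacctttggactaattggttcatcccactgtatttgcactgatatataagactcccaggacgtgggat

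VCAN had 1 GC box, starting 170 bases before the start site, and FBN2 had 3, starting 137, 63 and 51 bases before it, whereas PRG4 had 0. Such a match was found in 42.6% of 35116 RefSeq windows of the same length. The share of G and C was 60.8% for VCAN and 72.8% for FBN2, and 37.2% for PRG4, against a median of 58.0% over all windows. The search also covered, on both strands, the TATA box TATAAA (in 10.7% of all windows), the AP-1 motif TGANTCA (6.57%), the EGR1 motif GCGNGGGCG (8.41%), which can overlap a GC box, and the TEAD motif CATTCC (11.9%), and none of the 3 windows held one of these. Only these exact strings were searched, so near forms of a TATA box, such as tatataag in the PRG4 window and tataat in the VCAN window, were not counted. No searched string was found in all 3 windows.

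VCAN read 572.4 and 325.1 on attachment replicates 2 and 3. It read 108.8, 126.2 and 52.6 on low-attachment replicates 1, 2 and 3, and 78.1, 95.5 and 68.9 on FP001 replicates 1, 2 and 3. Every low-attachment array, with or without FP001, lay under both attachment arrays, and the arrays of both low-attachment groups overlapped. The mean (of log2 values, turned back to intensity) was 431.3 on attachment plates, 89.7 on low-attachment plates and 80.1 with FP001. The log2 difference from attachment plates was −2.27 ± 0.34 (standard error, SE, of the fit) without FP001 and −2.43 ± 0.34 with it, or 4.81-fold and 5.39-fold lower. In bulk RNA such as this, fewer cells of a type and less RNA per cell cannot be told apart. A second probe set carried the VCAN symbol and accession, at 19.3 and 8.21 on the attachment arrays, 4.63 to 6.23 on the low-attachment arrays and 3.57 to 4.34 with FP001. It stayed under the array median on all 8 arrays and did not pass the filter on dim probe sets, so only the brighter one stands for VCAN.

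FBN2 read 267.6 and 203.7 on the attachment arrays, 51.6, 62.8 and 45.2 on low-attachment replicates 1, 2 and 3, and 56.4, 67.2 and 79.9 on FP001 replicates 1, 2 and 3. As for VCAN, the attachment arrays stood above all 6 others. The mean was 233.5 on attachment plates, 52.7 on low-attachment plates and 67.2 with FP001. The log2 difference from attachment plates was −2.15 ± 0.18 without FP001 and −1.80 ± 0.18 with it (4.43-fold and 3.48-fold lower). FBN2 had the smallest spread of the 4 genes, with a pooled SD within groups of 0.25 on the log2 scale.

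PRG4 read 105.4 and 69.2 on the attachment arrays, 15.3, 44.3 and 35.1 on low-attachment replicates 1, 2 and 3, and 15.8, 20.2 and 26.4 on FP001 replicates 1, 2 and 3. It was dim away from the attachment plates. In all, 5 of its 8 values reached the array median, and the 3 that did not were low-attachment replicate 1 and FP001 replicates 1 and 2. The mean was 85.4 on attachment plates, 28.8 on low-attachment plates and 20.3 with FP001, which is 2.97-fold and 4.20-fold lower (log2 differences −1.57 ± 0.39 and −2.07 ± 0.39). With 16 added to each intensity before taking log2, which shrinks differences among dim values, the second of these was −1.48.

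In both comparisons with attachment plates, VCAN, FBN2 and PRG4 read lower with no overlap between the groups. These comparisons share the same 2 attachment arrays, and the genes were chosen from them. Of the 10916 genes tested, 23.4% were lower without overlap on low-attachment plates and 26.2% with FP001. By size of the difference, VCAN had the rank of 2 and 3 among the falls of all tested genes in the comparisons without and with FP001, FBN2 of 3 and 11, and PRG4 of 15 and 7.

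LUM did not follow the other genes. It read 93.3 and 28.2 on the attachment arrays, 246.6, 24 and 41.5 on low-attachment replicates 1, 2 and 3, and 436.5, 79.0 and 103.4 on FP001 replicates 1, 2 and 3. Replicate 1 was the highest in both low-attachment groups, and all pairs of groups overlapped. The highest array exceeded the lowest 3.30-fold on attachment plates, 10.3-fold on low-attachment plates and 5.53-fold with FP001. The means were 51.3, 62.6 and 152.7 in that order, and the log2 difference from attachment plates was 0.29 ± 0.94 on low-attachment plates and 1.57 ± 0.94 with FP001. Without low-attachment replicate 1 and FP001 replicate 1 these became −0.70 and 0.82, and without attachment replicate 3 the first was −0.57. The sign of the difference on low-attachment plates thus changed with either of these arrays left out.

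**Figure D1:**
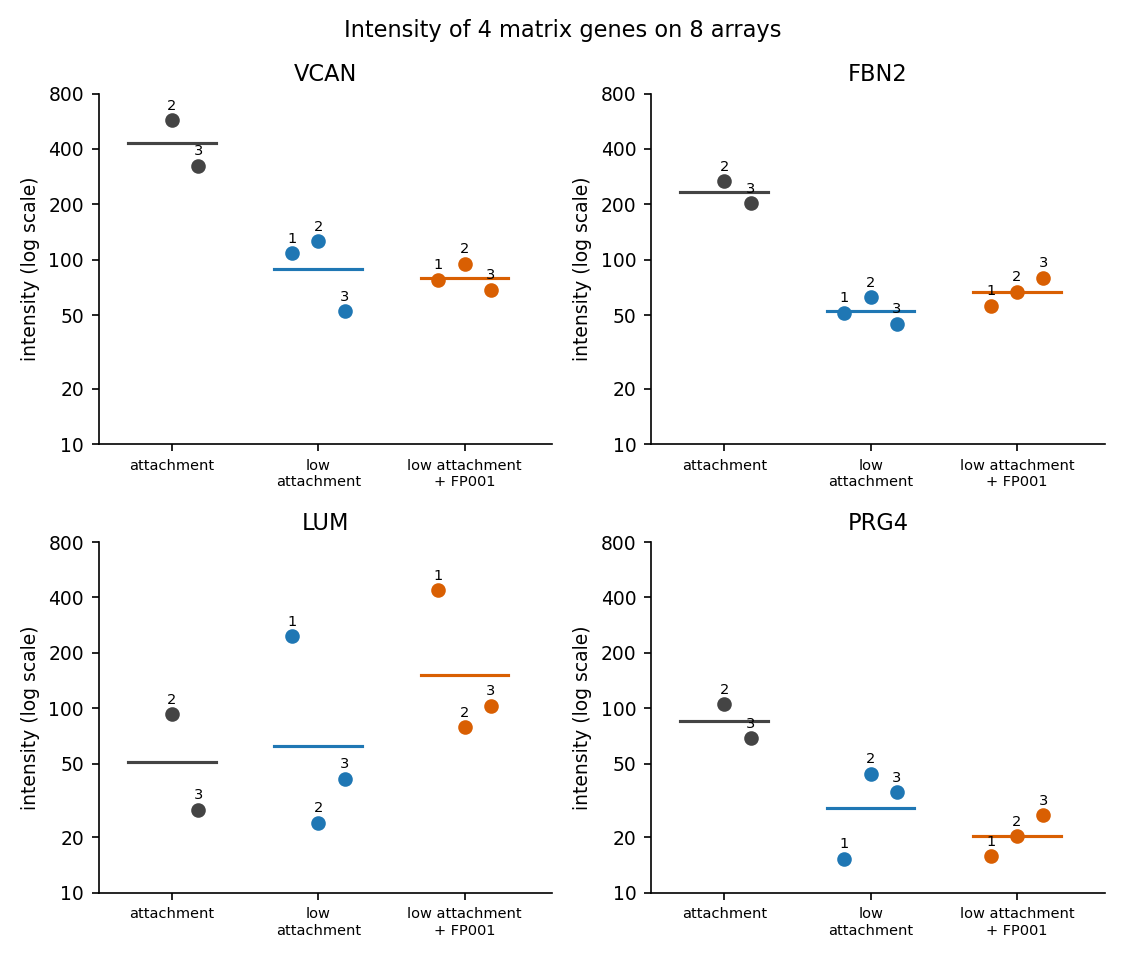
Intensity (log axis) of VCAN, FBN2, LUM and PRG4 on 8 arrays; points are arrays labelled with their replicate number and lines are group means of log2 values. VCAN, FBN2 and PRG4 are highest on the 2 attachment arrays, while LUM is highest on replicate 1 of both low-attachment groups (246.6 and 436.5).

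The order of the levels was attachment, then low attachment, then FP001 for VCAN and PRG4, and attachment, FP001, low attachment for FBN2. In each order the low-attachment groups were neighbours whose arrays overlapped. For LUM the order ran from attachment to low attachment to FP001, with overlap between all neighbours.

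All 4 genes varied more between arrays of a group than most genes did. The pooled SD within groups on the log2 scale was 1.5 for LUM, 0.59 for PRG4 and 0.52 for VCAN, besides 0.25 for FBN2, against a median of 0.13 over the tested genes. Attachment replicate 2 read higher than replicate 3 for each of the 4. On replicate 1 of the low-attachment plates LUM stood 3.94-fold above its group mean and PRG4 1.88-fold below, and on replicate 1 with FP001 they stood 2.86-fold above and 1.29-fold below. Over the 8 arrays the deviations of LUM and PRG4 from their group means had a Pearson r of −0.69, those of VCAN and FBN2 of 0.61, those of FBN2 and PRG4 of 0.57 and those of VCAN and PRG4 of 0.00. These are descriptions over 8 points that share arrays and scaling.

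**Figure D2:**
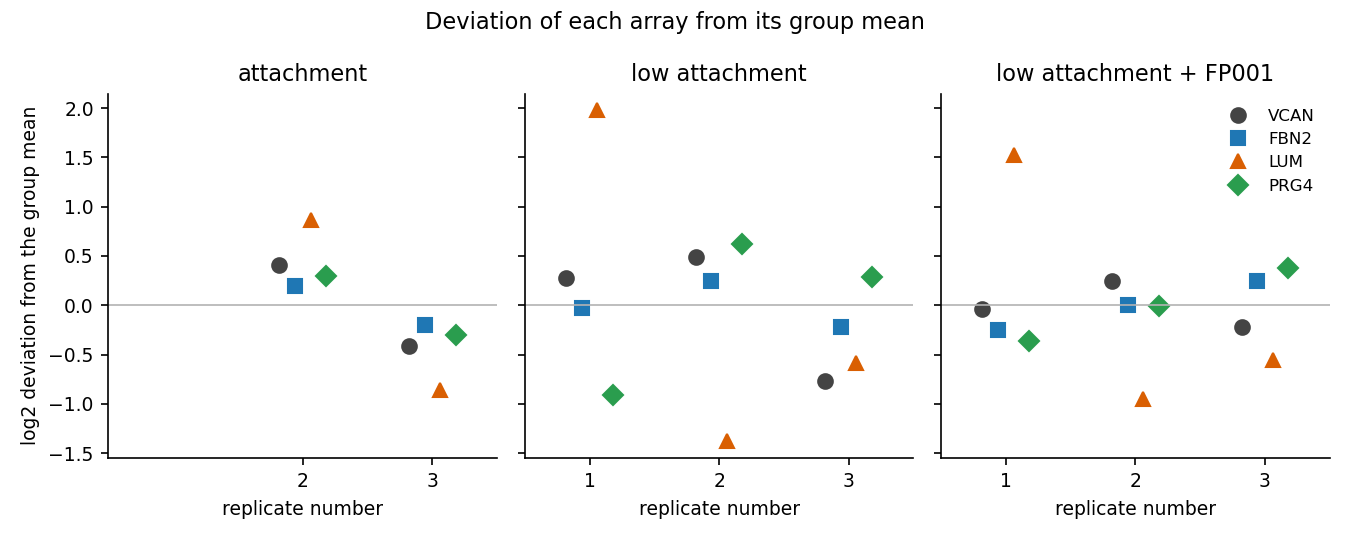
Log2 deviation of each array from its group mean (vertical) by replicate number (horizontal), in 1 panel per group, for VCAN, FBN2, LUM and PRG4. LUM is far above its mean and PRG4 below on replicate 1 of both low-attachment groups, and all 4 genes are above their mean on attachment replicate 2.

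FP001 was set against normal medium on low-attachment plates, where only the additive differed. LUM read higher with FP001 at each of the 3 replicate numbers, by 1.77-fold, 3.29-fold and 2.49-fold for numbers 1, 2 and 3 (log2 differences 0.82, 1.72 and 1.32). Arrays of the same number varied together in these groups, so the difference is given both without and with the replicate number as a block in the fit. The mean difference of LUM was 1.29 with an SE of 0.84 without a replicate block and 0.35 with it. By that mean LUM had the rank of 1 among the rises of the 10916 tested genes, and its pooled SD was also the highest. With 16 added to each intensity before taking log2, the mean difference of LUM was 1.03. The groups overlapped for all 4 genes, whereas 17.5% of the tested genes did not overlap between these groups. FBN2 was also higher at all 3 numbers, though little at the first 2 (0.13, 0.10 and 0.82; mean 0.35 ± 0.16, or ± 0.14 with the block). VCAN was lower at numbers 1 and 2 and higher at number 3 (−0.48, −0.40 and 0.39; mean −0.16 ± 0.30, or ± 0.14). PRG4 was equal at number 1 within 1.03-fold and lower at the others (−1.14 and −0.41; mean −0.50 ± 0.35, or ± 0.20). With the block the differences of LUM from attachment plates changed to −0.59 ± 0.41 without FP001, a turn of sign, and 0.70 ± 0.41 with it. Pairing by number was not seen for the attachment arrays, though the 2 that were used could hardly show it.

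For each gene the tested genes with the most similar pattern were sought by the Pearson r of log2 intensities over the 8 arrays. For VCAN they were the RNA-binding protein genes RBPMS2 (0.979) and BICC1 (0.977) and the heparan sulfate sulfotransferase gene HS3ST6 (0.976). For FBN2 they were AARS1, the alanyl-tRNA synthetase (0.993), the paracaspase gene MALT1 (0.983) and IL17RD (0.982), an inhibitor of growth factor signalling. AARS1 moved far less than FBN2 itself, with log2 differences of −0.53 and −0.45 from attachment plates. For PRG4 they were OLFML2A (0.99), a secreted olfactomedin protein, the thrombin receptor gene F2R (0.985) and HILPDA (0.985), a lipid droplet protein. For LUM they were TMC6 (0.970), TTYH3 (0.968) and the lysosomal sialidase gene NEU1 (0.963), each of which read highest on replicate 1 within both low-attachment groups. VCAN itself correlated with FBN2 at 0.93 and with PRG4 at 0.79, and LUM with PRG4 at −0.64. All these r values include the step between groups for which the 4 genes were chosen. For deviations from the group means the last 3 were 0.61, 0.00 and −0.69. The similar genes are the highest of 10916 over only 8 arrays.

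Genes next to the 4 on their chromosomes were also examined. VCAN and FBN2 lie on chromosome 5, LUM on chromosome 12 and PRG4 on chromosome 1. Of the 3 protein-coding neighbours on each side (24 in all), 18 had a named probe set and 9 were bright enough to be tested. In each comparison 0 of these 9 passed (limma, adjusted p under 0.05), with 2, 2 and 1 at an unadjusted p under 0.05 for low attachment, for FP001 against attachment and for FP001 against low attachment. Over all tested genes 10.1%, 19.5% and 0.11% passed, so among 9 genes a count of 0 says little about the neighbours. The DNA repair gene XRCC4, next to VCAN, had a log2 difference of −0.19 ± 0.10 on low-attachment plates, and HAPLN1 on the other side, which encodes a link protein that ties versican to hyaluronan, read 5.06 to 7.86. LUM lies among other small leucine-rich proteoglycan genes, and KERA, EPYC and DCN beside it read 3.02 to 4.89, 7.26 to 13.1 and 3.32 to 3.91, all under the array median on all 8 arrays. LUM itself was at or above the array median on all 8.

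Genes that work with these 4 proteins were then examined in 8 lists with 154 genes, of which 91 were tested. On low-attachment plates 16 of the 91 changed, 5 up and 11 down, or 17.6%, against 10.1% of all tested genes (4.31% up and 5.76% down). With FP001 21 changed against attachment plates, 9 up and 12 down, or 23.1%, against 19.5% (8.08% up and 11.4% down). The split is 6 up and 10 down, and 13 up and 10 down, under quantile normalization, which also turned the split over all genes from 471 up and 629 down to 612 and 512 (low attachment) and from 882 and 1244 to 1241 and 968 (FP001). The median log2 difference over the 91 genes was 0.06 and 0.10, against 0.01 and 0.02 over all genes. Most of the 91 genes did not pass in either comparison. The counts were 8 and 10 without attachment replicate 2 and 9 and 12 without attachment replicate 3. For low attachment 9 were called without low-attachment replicate 2 or 3, and for FP001 13 were called without FP001 replicate 1. With attachment replicate 1 included, 0 of the 91 passed (1 and 3 at an unadjusted p under 0.05). No test compared the lists with other genes.

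**Figure D3:**
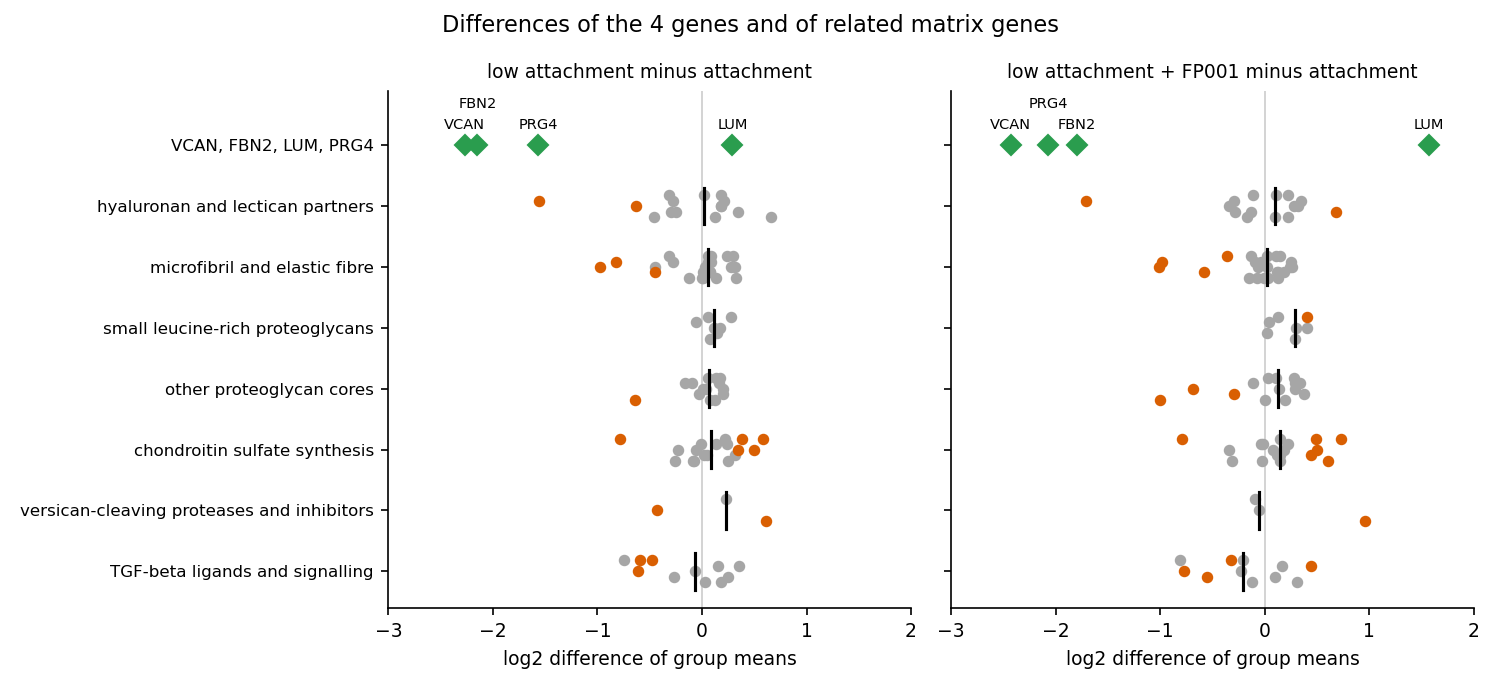
Log2 difference from attachment plates (horizontal) for low attachment (left) and low attachment with FP001 (right), with VCAN, FBN2, LUM and PRG4 in the top row (green diamonds) and genes of 7 related lists below; orange points passed the limma test, grey ones did not, and black bars are list medians. VCAN, FBN2 and PRG4 lie furthest left in both panels, next to HAS2 (−1.56 and −1.71), and the list medians lie between −0.21 and 0.29.

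Around versican, a hyaluronan synthase gene fell. HAS2, the enzyme that spins hyaluronan through the plasma membrane, read 205.9 and 123.4 on the attachment arrays, 45.3 to 59.9 on low-attachment plates and 40.1 to 55.8 with FP001. It fell 2.94-fold on low-attachment plates (log2 difference −1.56 ± 0.22, adjusted p = 0.0023) and 3.27-fold with FP001 (−1.71 ± 0.22, adjusted p = 0.000852), and both calls held without any 1 of the 8 arrays. Among 15 tested genes of the hyaluronan and lectican list, HAPLN3, another link protein gene, also fell on low-attachment plates (−0.63 ± 0.15, adjusted p = 0.0246). With FP001, FBLN2, a fibulin that binds versican and fibrillin, rose (0.68 ± 0.14, adjusted p = 0.00825). HAPLN3 missed the threshold without attachment replicate 2 (0.205) or low-attachment replicate 2 (0.0653) or 3 (0.0501), and FBLN2 without attachment replicate 3 (0.0614). With the replicate block, although pairing by number was not seen for the attachment arrays, 3 more genes of this list passed on low-attachment plates. The hyaluronan synthase gene HAS3 (−0.39 ± 0.11, adjusted p = 0.0343, against 0.187 without the block) and the fibulin gene FBLN1 (−0.33 ± 0.10, 0.0463 against 0.112) fell, and CEMIP, whose product acts in hyaluronan breakdown, rose (0.83 ± 0.23, 0.0333 against 0.178). FBLN1 then also fell with FP001 (−0.35 ± 0.10, 0.0276 against 0.068). Without the block 2 of the 15 passed in each comparison (13.3%), against 10.1% and 19.5% of all tested genes. The list medians were 0.02 and 0.10, and CD44, the main hyaluronan receptor, did not pass in either comparison (0.18 and 0.28, adjusted p = 0.355 and 0.117).

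Around fibrillin-2, the latent TGF-β binding proteins LTBP1 and LTBP4, which dock on microfibrils, fell, while the other fibrillin genes did not pass the test. LTBP1 read 246.7 and 235.0 on the attachment arrays, 114.4 to 130.1 on low-attachment plates and 113.6 to 131.4 with FP001. It fell 1.97-fold and 2.01-fold (−0.98 ± 0.10 and −1.01 ± 0.10, adjusted p = 0.000547 and 0.000276), and both calls held without any 1 array. LTBP4 fell 1.37-fold and 1.5-fold (adjusted p = 0.024 and 0.00481), and LOXL2, a lysyl oxidase that cross-links matrix proteins, 1.76-fold and 1.97-fold (0.0471 and 0.0157). FBN1, the gene of the main adult fibrillin, read 56.5 and 35.5 on the attachment arrays, 34.8 to 38.6 on low-attachment plates and 34.3 to 51.3 with FP001, with overlap between the groups (−0.28 and −0.09, adjusted p = 0.409 and 0.77). FBN3 read 36.8 to 42.7 over all 8 arrays (0.08 and 0.13, adjusted p = 0.672 and 0.41).

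Of 23 tested genes of the microfibril and elastic fibre list, 3 fell on low-attachment plates (LTBP1, LTBP4 and LOXL2) and 4 with FP001, and 0 rose in either (unadjusted, 5 and 4 genes were under 0.05 in all). The fourth was MFAP1 (−0.36 ± 0.09, adjusted p = 0.0249), whose product is known as a splicing factor despite its microfibril name, and it missed the threshold without attachment replicate 2 (0.0978) or 3 (0.116) or FP001 replicate 1 (0.0646). The list medians were 0.06 and 0.02. The shares of this list that passed were 13.0% and 17.4%, against 10.1% and 19.5% of all tested genes (5.76% and 11.4% down). With the replicate block EFEMP1, another fibulin gene, also fell on low-attachment plates (−0.68 ± 0.12, adjusted p = 0.00402, against 0.275 without the block). Here too the block includes attachment arrays, which showed no pairing by number. LTBP4 on low-attachment plates missed the threshold without attachment replicate 2 (0.157) or 3 (0.079) or low-attachment replicate 1 (0.0619) or 3 (0.0531), and with FP001 without attachment replicate 2 (0.0553). LOXL2 on low-attachment plates missed it without any 1 array other than FP001 replicate 1 (0.0505 to 0.196), under quantile normalization (0.0554) and with no filter (0.057), and with FP001 without attachment replicate 2 (0.0823) or 3 (0.0869).

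**Figure D4:**
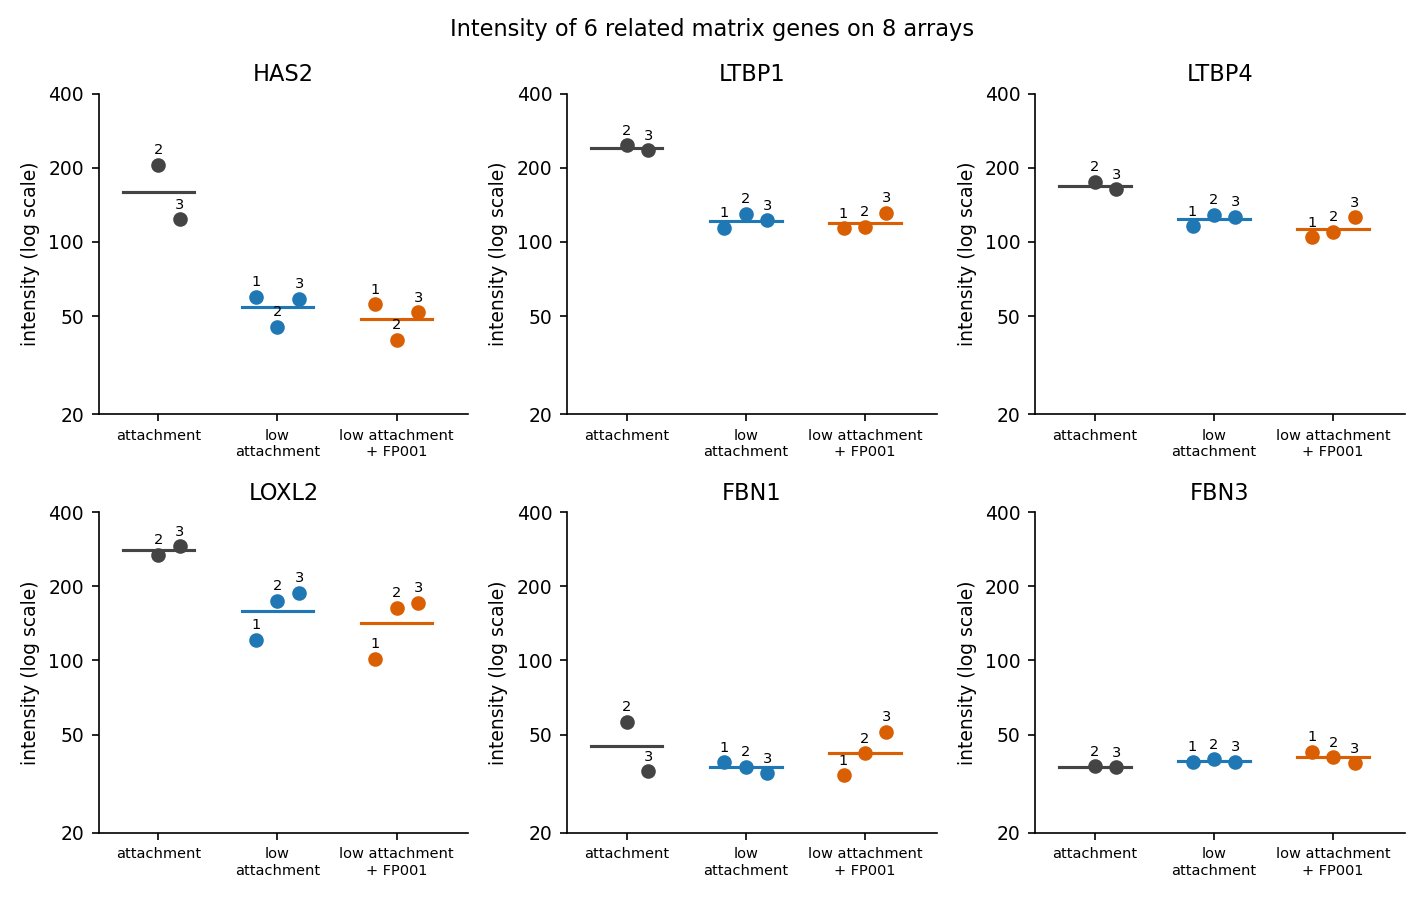
Intensity (log axis) of the hyaluronan synthase HAS2, the microfibril-associated LTBP1 and LTBP4, the cross-linking enzyme LOXL2 and the other fibrillins FBN1 and FBN3 on 8 arrays, labelled with replicate numbers, with lines at group means of log2 values. The 2 attachment arrays stand above all others for HAS2, LTBP1, LTBP4 and LOXL2, whereas FBN1 overlaps between the groups and FBN3 stays between 36.8 and 42.7.

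Among the relatives of lumican 1 gene passed, in 1 comparison. Of 7 tested small leucine-rich proteoglycan genes, 0 passed on low-attachment plates (limma; 1 at an unadjusted p under 0.05), and biglycan (BGN) rose with FP001 against attachment plates by 1.32-fold (0.40 ± 0.12, adjusted p = 0.046). BGN missed the threshold without attachment replicate 2 (0.291) or 3 (0.0634), low-attachment replicate 2 (0.0561) or 3 (0.0625), or FP001 replicate 1 (0.101) or 2 (0.129), without replicate 1 of both low-attachment groups (0.0884) and with no filter on dim probe sets (0.0596). The shares of this list that passed were 0% and 14.3%, against 10.1% and 19.5% of all tested genes. The list medians were 0.11 and 0.29. Fibrillar collagens, to which lumican binds, had 0 named probe sets among 13 genes and were not analysed here.

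Among other proteoglycans, glypican-6 (GPC6), a heparan sulfate proteoglycan of the cell surface, was the 1 of 14 that fell on low-attachment plates (−0.64 ± 0.12, adjusted p = 0.0083), a call missed without attachment replicate 2 (0.0889). With FP001 it fell 1.99-fold (adjusted p = 0.000616), as 1 of 3 genes of this list that passed. The shares that passed were 7.14% and 21.4%, against 10.1% and 19.5% of all tested genes. BCAM, a laminin receptor that is in this list although it is not a proteoglycan, read 560.7 and 492.9 on the attachment arrays, 494.5 to 566.3 on low-attachment plates and 306.8 to 346.9 with FP001. It fell with FP001 against attachment (1.62-fold, adjusted p = 0.00131) and against low attachment (1.63-fold, −0.70 ± 0.09, adjusted p = 0.0203). The receptor gene NRP1 fell 1.22-fold with FP001 against attachment (adjusted p = 0.0349), a call missed without attachment replicate 2 (0.173) or 3 (0.0964) or FP001 replicate 1 (0.0848) or 2 (0.0799), without replicate 1 of both low-attachment groups (0.0537) or under quantile normalization (0.0624).

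Enzymes that build chondroitin sulfate, the chains that versican carries, went both ways. Of 18 tested, 4 rose and 1 fell on low-attachment plates, and 5 rose and 1 fell with FP001 against attachment. These are 27.8% and 33.3% of the list, against 10.1% and 19.5% of all tested genes. The gene that fell was CSGALNACT1 in both, an enzyme that starts a chain, at 98.2 and 96.2 on the attachment arrays, 51.5 to 59.7 on low-attachment plates and 49.4 to 63.4 with FP001 (−0.78 ± 0.12 and −0.79 ± 0.12, adjusted p = 0.00413 and 0.00222), and it was called without any 1 array. CHPF, a factor that lengthens chains, rose 1.49-fold and 1.66-fold (adjusted p = 0.00759 and 0.00145), and the sulfotransferase gene CHST15 rose 1.41-fold in both (0.0135 and 0.0086). Without attachment replicate 3, CHPF on low-attachment plates (0.0705) and CHST15 in both comparisons (0.116 and 0.0743) missed the threshold.

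The other rises in this list were lost in more settings, and UXS1, CHPF2 and UST are named after their values were seen. UXS1, which makes the xylose donor for the chain's first sugar, rose 1.30-fold and 1.40-fold (adjusted p = 0.0348 and 0.00825). CHPF2 rose 1.27-fold on low-attachment plates only (0.049), and the sulfotransferase genes CHST3 (1.53-fold, 0.0492) and UST (1.36-fold, 0.0439) with FP001 only, where differences between the comparisons were not tested. With the replicate block CHPF2 (0.0676) and UST (0.0566) missed the threshold, and with no filter CHPF2 (0.0653), UST (0.0542) and CHST3 (0.059) did. UXS1 with FP001 missed it without attachment replicate 2 (0.0906). UXS1 on low-attachment plates missed it without attachment replicate 2 (0.258), any 1 low-attachment array (0.056 to 0.0991) or FP001 replicate 2 (0.0554) or 3 (0.0536), and CHPF2 without any 1 array but FP001 replicate 1 (0.0632 to 0.229). CHST3 missed it without attachment replicate 2 (0.121) or 3 (0.231), low-attachment replicate 2 (0.0646) or FP001 replicate 1 (0.126) or 3 (0.0702), and UST without attachment replicate 3 (0.292), low-attachment replicate 2 (0.0586) or 3 (0.0615), or FP001 replicate 1 (0.114) or 3 (0.094), or replicate 1 of both low-attachment groups (0.0903).

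Of the proteases that cleave versican and their inhibitors, only 3 of 13 genes were tested, all inhibitors (TIMP1, TIMP2 and TIMP4). TIMP4 read 184.0 and 146.4 on the attachment arrays, 239.8 to 266.0 on low-attachment plates and 310.7 to 329.5 with FP001, and rose 1.53-fold (adjusted p = 0.00635, or 0.057 without attachment replicate 3) and 1.94-fold (0.000453). TIMP2 fell 1.35-fold on low-attachment plates (adjusted p = 0.0208), a call missed without attachment replicate 3 (0.151) or low-attachment replicate 1 (0.0515) or 2 (0.058). Its mean with FP001 did not pass against attachment (−0.05 ± 0.10, adjusted p = 0.728).

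Of 11 genes of TGF-β and BMP signalling, whose ligands microfibrils hold, 3 fell on low-attachment plates and 3 fell and 1 rose with FP001 against attachment. The shares that passed were 27.3% and 36.4%, against 10.1% and 19.5% of all tested genes. SMAD2, which carries the TGF-β signal to the nucleus, fell 1.5-fold (adjusted p = 0.00443) and, with FP001, 1.25-fold (0.0387; outside the naming rule). The growth factor gene BMP4 fell 1.52-fold and 1.70-fold (0.0305 and 0.00731). THBS1, an activator of latent TGF-β, fell 1.40-fold on low-attachment plates (0.0315), and of the SMAD repressors SKIL fell 1.46-fold (0.0218) and SKI rose 1.36-fold (0.0287) with FP001. Without attachment replicate 2 BMP4 in both comparisons (0.25 and 0.0833), THBS1 (0.238), SKIL (0.139), SKI (0.0536) and SMAD2 with FP001 (0.143) missed the threshold. Without attachment replicate 3 THBS1 (0.0531), SKIL (0.0732), SKI (0.181) and SMAD2 with FP001 (0.146) did. On low-attachment plates BMP4 was also missed without low-attachment replicate 2 (0.0838) or 3 (0.066), and THBS1 without any 1 low-attachment array (0.0656 to 0.0702). With FP001, SKIL was missed without FP001 replicate 1 (0.0577), SKI without FP001 replicate 1 (0.0521) or 2 (0.0828), and SMAD2 without low-attachment replicate 3 (0.0564), any 1 FP001 array (0.0514 to 0.0973) or under quantile normalization (0.0666). With the replicate block the ligand gene BMP2 fell in both comparisons (−0.94 ± 0.18 and −1.01 ± 0.18, adjusted p = 0.00632 and 0.00301, against 0.128 and 0.0711 without the block), and SKI rose on low-attachment plates too (0.39 ± 0.11, 0.0364 against 0.0956). These block calls also rest on attachment arrays, for which no pairing by number was seen.

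Between FP001 and normal medium on low-attachment plates, 1 of the 91 related genes passed, BCAM, where 0.11% of all tested genes did (12 genes, 0.0366% up and 0.0733% down, or 4 and 8; quantile normalization gave 4 and 5). BCAM missed the threshold without low-attachment replicate 2 (0.0517) or 3 (0.0723) or FP001 replicate 1 (0.0609), 2 (0.155) or 3 (0.0767). With the replicate block 142 genes passed, and 2 of the related genes, BCAM and TIMP2 (0.38 ± 0.07, adjusted p = 0.0361, against 0.157 without the block). HAS2 and LTBP1, which fell with VCAN and FBN2 against attachment plates, had log2 differences of −0.15 (adjusted p = 0.801) and −0.03 (0.937) between the low-attachment groups.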

How the data were processed

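Total RNA of 9 samples was read on Affymetrix arrays from 100 ng each. The authors deposited linear intensities, and the submitters' processing notes name MAS5; no source used here gives its version or settings. Labelling used a 3' IVT kit per the labels, whereas the probe set identifiers are those of a whole-transcript array, so it is unsure what stretch of each RNA was measured. The labels do not tell whether replicates were grown separately. P-values may thus cover technical spread alone, and the number of arrays limits precision. Symbols came from the platform annotation in GEO (16098 with 1 symbol, 0 with several, 37519 not named), updated through a RefSeq table by gene identifier (16098 matched). Attachment replicate 1 was left out by the rule that chose the 4 genes. Values were taken as log2 with no pseudocount and no further normalization. A probe set was kept at or above the array median on at least 3 of 8 arrays, so one that reached it only on the 2 attachment arrays was dropped, and the brightest probe set stood for a gene (10916 genes). The 3 group means were fitted with limma 3.58.1 in R 4.3.3 (lmFit, eBayes with trend, 5 residual and 5.6 prior degrees of freedom). P-values are two-sided, Benjamini-Hochberg adjusted over the 10916 genes and called under 0.05. On simulated arrays with 200 genes of 10916 shifted by a log2 of 1, 87.0% were recovered for low attachment and 90.5% for FP001 against attachment. The simulated arrays varied independently with normal noise, unlike the same-numbered low-attachment arrays, so these shares need not hold for the real arrays.

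The 4 genes, the related lists and the marker lists were chosen with earlier results of these data known. From each list, genes named were up to 3 called genes per comparison, by size, whose groups did not overlap. For each of the 4, the 3 most similar genes were named. Chromosomal neighbours were added after seeing the data. Same-numbered arrays of the low-attachment groups deviated together from their group means (correlations 0.483, 0.309 and 0.231 for numbers 1, 2 and 3), so these numbers were taken to pair them. Unlike numbers of these groups gave −0.353 to 0.133, the highest for low-attachment replicate 2 with FP001 replicate 3. The pairing of numbers 2 and 3 is thus less certain than that of number 1. Deviations cancel out within a group, so positive values for same numbers push those for unlike numbers down. The contrast between same and unlike numbers is therefore partly built in. No such pairing was seen for the attachment arrays (−0.205 for number 2, 0.138 for number 3 against low attachment, and −0.256 and 0.00762 against FP001). The deviations of the 2 attachment arrays mirror each other, and number 1 was left out. Pairing of the attachment arrays could thus hardly be checked. Alternatives were all 9 arrays, quantile normalization, log2(intensity + 16), a replicate block, no filter, every probe set on its own and leaving out each array, and, added later, a filter at 2 arrays and leaving out replicate 1 of both low-attachment groups.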

Additional observations from a re-analysis of the deposited data

How the results depend on the processing

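With all 9 arrays 0 genes passed in any comparison (limma; 198, 330 and 11 at an unadjusted p under 0.05 for low attachment, FP001 against attachment and FP001 against low attachment) and 0 related genes (1, 3 and 0). The log2 differences from attachment plates then were −0.62 and −0.78 for VCAN, −1.65 and −1.30 for FBN2 and −0.53 and −1.03 for PRG4, without and with FP001. With log2(intensity + 16) FBN2 on low-attachment plates was −1.86 and PRG4 with FP001 −1.48. With the replicate block 142 genes and 2 related genes passed between the low-attachment groups. Against attachment plates, whose arrays showed no pairing by number, the block gave 22 and 26 related genes, within 1.5 times the totals without it. Besides those named above it added the proteoglycan genes SRGN (0.31, adjusted p = 0.0272) on low-attachment plates, and GPC1 (0.49, 0.0048), SRGN (0.44, 0.0034), CSPG5 (0.39, 0.035) and SDC1 (0.33, 0.0338) with FP001 (limma).

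Leaving out 1 array gave 362 to 1301 and 660 to 2305 genes against attachment plates and 0 to 11 between the low-attachment groups (945 to 1374 at an unadjusted p under 0.05 where it was 0), and 8 to 17, 10 to 23 and 0 to 1 related genes (9 to 16 unadjusted where 0). It gave −2.67 to −1.86 and −2.84 to −2.02 for VCAN, −2.34 to −1.95 and −1.99 to −1.60 for FBN2 and −1.88 to −1.11 and −2.37 to −1.77 for PRG4 against attachment plates, and −0.70 to 1.15 and 0.71 to 2.44 for LUM. Between the low-attachment groups LUM ranged from 0.53 to 2.27, FBN2 from 0.22 to 0.48, PRG4 from −0.96 to −0.19 and VCAN from −0.55 to 0.08. With 1 attachment array left, that array is assumed to vary like the other groups.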

Other observations

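Attachment replicate 1, which was used above only in the fits with all 9 arrays, is listed at 14.0 for VCAN, 83.8 for FBN2, 40.4 for LUM and 9.89 for PRG4, with an array median of 15.8. As its values had no positive rank correlation with any other array (−0.00191 at most), they may not belong to these genes, and they are not compared with the other arrays.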
